A study of Mus musculus with 37 samples.

Results

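Glucocorticoid activation and response was followed through 8 genes of the 21975 gene identifiers in the count and TPM (length-corrected transcript abundance) tables of hippocampal astrocytes. The genes were Hsd11b1, Tsc22d3, Nr3c1, Nr3c2, Fkbp5, Sgk1, Per1 and Zbtb16, found by symbol from the gene identifier, and all 8 were present. They were chosen from results of these same libraries, together with textbook knowledge of the pathway, and the values that chose each of them were not recorded. Levels and differences of the 8 genes between groups and hemispheres are therefore a description with no test. Male wild-type mice (given as CD31 in the labels and as CD1 in the methods) received a unilateral controlled cortical impact (CCI) injury or a sham craniectomy, and all carried an intracranial EEG electrode. Injured mice with 2 or more epileptic episodes were PTE+ (post-traumatic epilepsy) and the other injured mice were PTE-. Astrocytes were isolated 4 months post injury from each hippocampus with ACSA-2 MicroBeads after papain digestion, so each library is 1 hippocampus of 1 adult mouse. The contralateral hippocampus gave 5 PTE+, 10 PTE- and 5 sham libraries, the ipsilateral one gave 4, 8 and 5, and 17 of the 20 mice (4 PTE+, 8 PTE- and 5 sham) had both. Seizure status was scored from the EEG and was not randomized, so PTE status and any other difference between the injured mice cannot be told apart.

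Glucocorticoids reach astrocytes as the active hormone and as an inert keto form that the enzyme 11beta-hydroxysteroid dehydrogenase type 1, the product of Hsd11b1, reduces back to the active steroid inside the cell. The hormone binds the glucocorticoid receptor (Nr3c1) and, with higher affinity, the mineralocorticoid receptor (Nr3c2), which wait in chaperone complexes and act as transcription factors once occupied. Classical induced genes are Tsc22d3 (GILZ, an anti-inflammatory leucine zipper protein), Fkbp5 (a co-chaperone that lowers the receptor's affinity for its hormone), Sgk1 (a serine/threonine kinase that controls ion channels and transporters), Per1 (a repressor of the circadian clock) and Zbtb16 (PLZF, a zinc finger transcription factor). In the hippocampus both receptors are abundant, and astrocytes are among the cells that respond to circulating glucocorticoid.

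The upstream sequences of the source enzyme and of 2 targets are shown because the receptor binds DNA at an inverted repeat, the glucocorticoid response element, searched here as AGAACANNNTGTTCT and, for 1 arm of the repeat, as AGAACA or TGTTCT on both strands. The full element also counts as 2 arms. Coordinates and sequences are from RefSeq promoter windows (250 bases before to 50 after each listed start, build GRCm38.p6), which matched 6 of the 8 genes. Of 32851 such windows over all genes, 3 (0.00913%) held the full element and 6233 (18.97%) held at least 1 arm. The 250 bases before the start are printed 5′ to 3′ on the gene's strand, with every arm in capitals.
Sgk1, chr10:21993640-21993889, plus strand: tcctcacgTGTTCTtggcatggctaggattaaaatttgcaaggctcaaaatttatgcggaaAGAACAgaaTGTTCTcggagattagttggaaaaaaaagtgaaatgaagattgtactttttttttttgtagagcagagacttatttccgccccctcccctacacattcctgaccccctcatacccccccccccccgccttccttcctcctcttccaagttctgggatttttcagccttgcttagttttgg
Tsc22d3, chrX:140600523-140600772, minus strand: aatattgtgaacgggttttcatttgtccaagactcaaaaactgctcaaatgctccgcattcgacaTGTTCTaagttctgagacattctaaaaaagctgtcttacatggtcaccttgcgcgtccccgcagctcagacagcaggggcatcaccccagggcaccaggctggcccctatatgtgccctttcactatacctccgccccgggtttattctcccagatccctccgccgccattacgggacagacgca
Hsd11b1, chr1:193242361-193242610, minus strand: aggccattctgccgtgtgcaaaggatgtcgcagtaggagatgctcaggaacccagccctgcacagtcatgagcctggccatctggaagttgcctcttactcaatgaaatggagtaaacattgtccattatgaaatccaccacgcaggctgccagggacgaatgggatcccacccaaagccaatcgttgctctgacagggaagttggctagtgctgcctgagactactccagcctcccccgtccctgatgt
Sgk1 and Tsc22d3 have several listed starts, and for each the window with the most arms is printed. The printed Sgk1 window held 3 arms, and the last 2 of them form the full element. The printed Tsc22d3 window held 1 arm and the Hsd11b1 window none. Of the other Sgk1 windows, 2 held 1 arm each and the rest held none. The other Tsc22d3 windows and the windows of Fkbp5, Nr3c2 and Per1 held none. A match is a run of letters and not a bound site.

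Each library held 25371887 to 59846479 estimated counts, and no library repeated another. In 4 libraries over 10% of the 6953 abundant genes (median above 1000 counts) had at most 3 counts: the ipsilateral PTE- libraries of mice a8_11 and a8_14, the contralateral PTE- library of a9_20 and the ipsilateral sham library of a9_9. Fold changes that rest on them are mostly given with and without them. Correlations, marker sums and differences within a prefix of the mouse name are given only with them. All 10 astrocyte markers (among them Aqp4, Slc1a2, Aldh1l1 and Gfap) had more than 3 counts in every library, and their summed level ran from 10889 to 33303 CPM (counts scaled by the library total). The highest summed level in any library was 598 CPM for 6 microglia markers, 2770 for 6 oligodendrocyte markers, 1330 for 6 neuron markers, 3314 for 5 endothelial markers and 1425 for 6 mural or fibroblast markers. The sum of 4 choroid plexus markers was 32.3 CPM at the median and 4820 in 1 ipsilateral PTE- library. In bulk libraries such as these, fewer expressing cells and less RNA per cell cannot be told apart.

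Hsd11b1 was the most abundant of the 8 genes. On the TPM scale, which corrects for transcript length, its median over the 37 libraries was 461 (mean 464 ± 236 SD), which ranked 246th of all genes. Tsc22d3 followed with a median level of 238 TPM (230 ± 94.5, SD) and was below Hsd11b1 in 32 of 37 libraries. The glucocorticoid receptor Nr3c1 stood at 67.5 TPM (79.8 ± 52.2, SD), and Sgk1 at 32.0 (32.4 ± 23.7, SD), with Nr3c1 above Sgk1 in 33 of 37 libraries. The mineralocorticoid receptor Nr3c2 was lower at a median of 10.4 TPM (11.4 ± 6.31, SD) and was below Nr3c1 in 36 of 37 libraries, with a median ratio of Nr3c1 to Nr3c2 of 6.36. Per1 (median 3.51 TPM), Zbtb16 (2.28 TPM) and Fkbp5 (1.99 TPM) were at the bottom and could not be ordered. Per1 exceeded Zbtb16 in 18 of 37 libraries, and Zbtb16 exceeded Fkbp5 in 18 of 37. Fkbp5 and Zbtb16 had at most 3 counts in 5 libraries each and Sgk1 in 2, whereas the other 5 genes were above that level in all 37.

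In the ipsilateral hippocampus Hsd11b1 was lower in both injured groups than in sham. The 5 sham libraries held 324, 489, 503, 545 and 907 CPM (mean 554 ± 214, SD, n = 5). The 4 PTE+ libraries held 109.9, 173, 178 and 308 CPM (192 ± 83.3, SD, n = 4). The 8 PTE- libraries ran from 81.4 to 410.3 CPM with a median of 215 (226 ± 125, SD, n = 8). Every PTE+ library was below every sham library, and 6 of the 8 PTE- libraries were as well, while mice a8_9 and a9_13 overlapped the lowest sham value. The fitted log2 fold change was -1.71 ± 0.50 (SE) for PTE+ and -1.40 ± 0.40 (SE) for PTE- against the same sham libraries. Between the injured groups it was -0.31 ± 0.44 (SE) for PTE+ against PTE-. The lowest PTE- values (a8_11 and a8_14) and the highest sham value (a9_9) belonged to libraries that stand apart. Without them the log2 fold change was -1.44 ± 0.38 (SE) in PTE+ and -0.86 ± 0.33 (SE) in PTE- against sham, and -0.58 ± 0.34 (SE) for PTE+ against PTE-, so that the last value exceeded its SE only without them. The sham range of 324 to 545 CPM without a9_9 still lay above the whole PTE+ range. Leaving out any single library gave -2.02 to -1.44 for PTE+ and -1.59 to -1.13 for PTE- against sham, and -0.63 (without a8_10) to -0.07 (without the PTE- library of a9_13) for PTE+ against PTE-.

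Contralaterally the order of the group means was the same, but the groups overlapped. Sham libraries held 433, 461, 467, 720 and 842 CPM of Hsd11b1 (585 ± 185, SD, n = 5). PTE- libraries ran from 221 to 699 CPM with a median of 446 (435 ± 136, SD, n = 10), and PTE+ libraries held 192, 206, 358, 424 and 536 CPM (343 ± 146, SD, n = 5). The log2 fold change was -0.80 ± 0.34 (SE) for PTE+ against sham, -0.35 ± 0.29 (SE) for PTE- against sham and -0.46 ± 0.29 (SE) for PTE+ against PTE-. The lowest PTE- value was in the library of a9_20, which stands apart. Without it the log2 fold change was -0.27 ± 0.27 (SE) for PTE- against sham and -0.54 ± 0.28 (SE) for PTE+ against PTE-. Leaving out a single library gave -0.46 (without a8_13) to -0.14 (without the sham library of a8_16) for PTE- against sham. For PTE+ against PTE- it gave -0.71 (without a8_17) to -0.30 (without a9_17). The size of the group differences also varied with the prefix of the mouse name, a8 or a9, whose meaning the labels do not give. Within a8 contralateral PTE+ minus sham was -0.39 on the log2(CPM + 1) scale (2 against 2 libraries), and within a9 it was -1.12 (3 against 3). Ipsilaterally the same difference was -0.74 in a8 (1 against 2) and -1.81 in a9 (3 against 3), and PTE- minus sham was -1.84 in a8 (3 against 2) and -1.18 in a9 (5 against 3). PTE+ minus PTE- ipsilaterally had opposite signs in the 2 prefixes, 1.09 in a8 (1 against 3) and -0.63 in a9 (3 against 5). The a8 PTE- libraries of a8_11 and a8_14 (81.4 and 88.7 CPM) stand apart. The remaining one, of a8_9, held 410.3 CPM, against 308 CPM in the PTE+ library of a8_10. The opposite sign therefore rests on libraries that stand apart, and the a8 value of PTE- minus sham does in part. The ipsilateral a9 sham libraries include that of a9_9, which also stands apart.

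**Figure D1:**
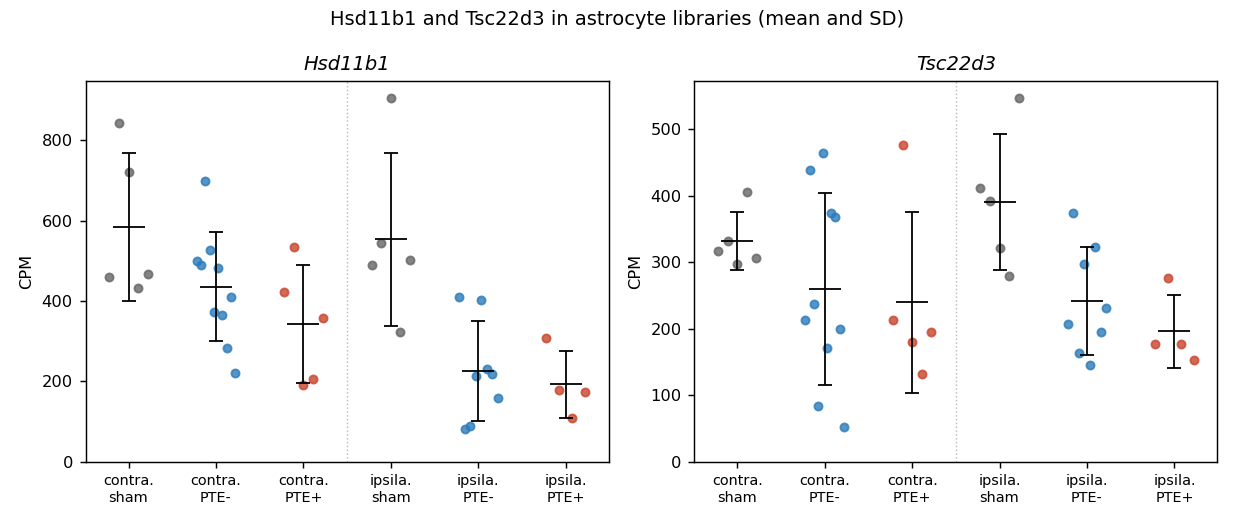
Level of Hsd11b1 (left) and Tsc22d3 (right) in CPM on a linear axis from 0, 1 point per library, for sham, PTE- and PTE+ in the contralateral and ipsilateral (right of the dotted line) hippocampus, with the mean as a bar and the SD as whiskers. The 4 ipsilateral PTE+ libraries lie between 109.9 and 308 CPM for Hsd11b1, all below the 5 sham libraries, which start at 324.

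Within mice, Hsd11b1 was lower on the injured side in all 12 injured mice with both libraries. In the 4 PTE+ mice the contralateral and ipsilateral levels were 424 and 308 CPM, 192 and 178, 206 and 109.9, and 358 and 173. In the 8 PTE- mice the within-mouse log2 difference (ipsilateral minus contralateral) ran from -2.57 to -0.26, with a mean of -1.11 ± 0.97 (SD, n = 8). The largest differences among the PTE- mice were from 489 to 81.4 CPM in a8_11 and from 528 to 88.7 in a8_14, both to libraries that stand apart. Sham mice showed both directions, lower in 2 and higher in 3 of 5, with a mean of -0.10 ± 0.40 (SD, n = 5). The count of 12 of 12 was the same on CPM with TMM factors and on TPM, and it was 10 of 10 without the mice of libraries that stand apart, while the sham count was 3 of 5 lower on TPM. Of the 15731 genes tested between hemispheres, 8 (0.0509%) were lower ipsilaterally in all 12 injured mice. The other 7, named after their values were seen, were Trpv2, Sox17, Cisd1, Eps8l3, Tmem60, Gm10719 and Gm10721. The fitted side difference of Hsd11b1 was -0.64 ± 0.43 (SE) in PTE+, -1.01 ± 0.31 (SE) in PTE- and 0.02 ± 0.38 (SE) in sham mice. With the mouse as a replicate block it was -0.64 ± 0.39, -1.17 ± 0.29 and -0.01 ± 0.35 (SE). The difference of the side differences was -1.03 ± 0.49 (SE) for PTE- against sham and 0.37 ± 0.53 (SE) for PTE+ against PTE-. Without the mice of libraries that stand apart the PTE- side difference was -0.59 ± 0.29 (SE), and its difference from sham was -0.40 ± 0.46 (SE), within its error. For PTE+ against PTE- the difference of the side differences turned sign without them, to -0.06 ± 0.46 (SE).

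**Figure D2:**
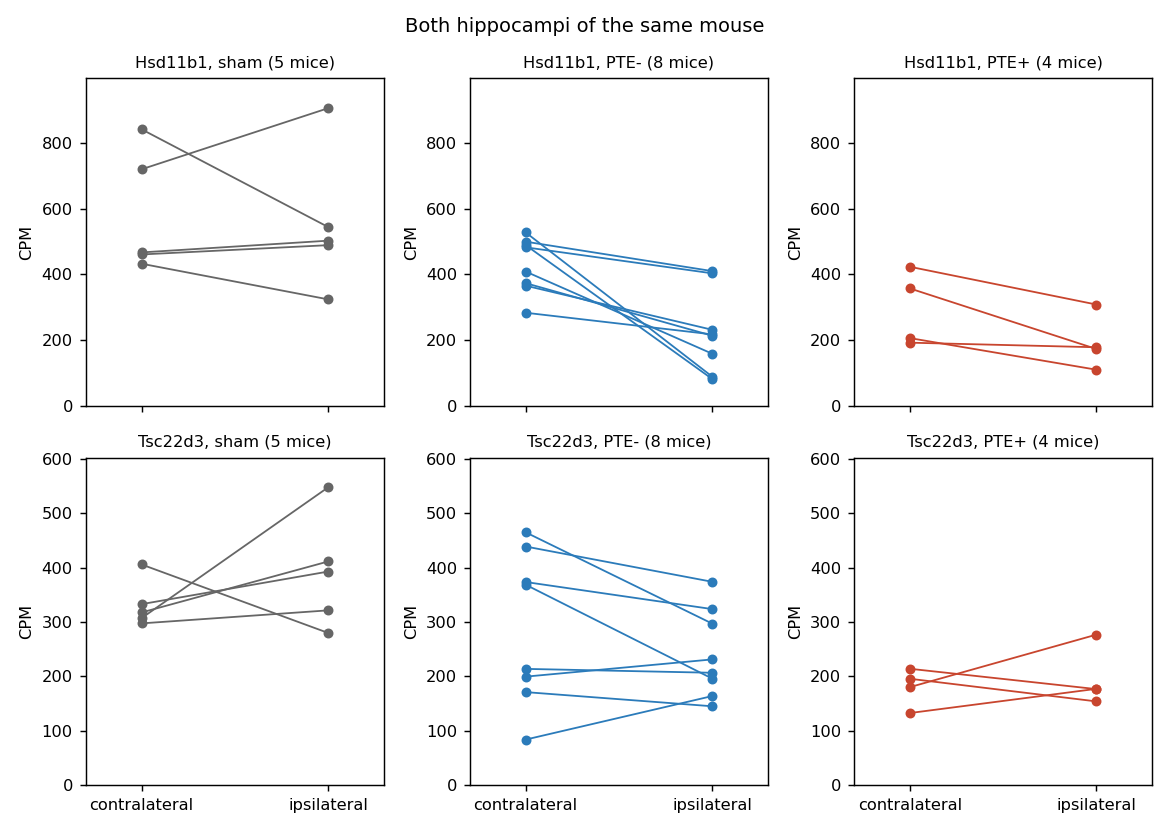
Contralateral and ipsilateral level of Hsd11b1 (top) and Tsc22d3 (bottom) in CPM, 1 line per mouse with both libraries, for sham (5 mice), PTE- (8) and PTE+ (4). All 12 lines of injured mice slope down for Hsd11b1, and 8 of the 12 do for Tsc22d3.

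The marker lists moved with Hsd11b1 in part. Ipsilaterally the summed astrocyte markers had a median of 30088 CPM in sham (20935 to 32798), 21857 in PTE- (10889 to 30599) and 22867 in PTE+ (21201 to 27181). All 10 astrocyte markers exceeded 3 counts in each of these libraries. The summed neuron markers had an ipsilateral median of 188 CPM in sham (79.2 to 594), 354 in PTE- (36.9 to 801) and 386 in PTE+ (136 to 911). The ipsilateral median of the oligodendrocyte sum was 1250 CPM in sham, 797 in PTE- and 752 in PTE+. In the same order it was 395, 594 and 573 CPM for mural or fibroblast markers. It was 237, 130 and 167 CPM for microglia and 519, 308 and 520 for endothelial markers. Over the 37 libraries Spearman's rho of Hsd11b1 was 0.54 with the astrocyte sum and -0.32 with the neuron sum. With the other cell type sums it ran from -0.24 (mural or fibroblast) to 0.06 (endothelial). These values share the same library totals. The part of any of these lists in the Hsd11b1 differences was not tested. Hsd11b1 overlaps 1 other annotated gene, Lamb3 (a laminin subunit), and whether the counting used strand is not given in the sources used here. Lamb3 held at most 23.3 CPM in any library, against at least 81.4 CPM of Hsd11b1.

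Tsc22d3, the most abundant target among the 8 genes, was also lower ipsilaterally in injured than in sham mice. Sham libraries held 279.6, 321, 393, 411 and 548 CPM (390.4 ± 103, SD, n = 5). PTE+ libraries held 154, 176, 177 and 277 CPM (196 ± 54.9, SD, n = 4), and PTE- libraries ran from 145 to 374 CPM with a median of 219 (242 ± 81.2, SD, n = 8). The PTE+ and sham ranges did not overlap, although the highest PTE+ library (a9_17) was only just below the lowest sham library (a9_10), and 3 of the 8 PTE- libraries exceeded that sham value. The log2 fold change was -1.16 ± 0.33 (SE) for PTE+ and -0.79 ± 0.27 (SE) for PTE- against sham, and -0.36 ± 0.29 (SE) for PTE+ against PTE-. Without libraries that stand apart these were -1.21 ± 0.27, -0.93 ± 0.24 and -0.28 ± 0.24 (SE). Within the a9 prefix PTE+ minus sham was -0.90 on the log2(CPM + 1) scale and within a8, with 1 PTE+ library, it was -1.18.

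In the contralateral hippocampus Tsc22d3 varied most within the injured groups. Sham libraries lay close together at 297, 307, 317, 333 and 406 CPM (332 ± 43.3, SD, n = 5), whereas PTE- libraries ran from 52.5 to 465 CPM with a median of 225 (260.1 ± 144, SD, n = 10) and PTE+ libraries held 132, 179.9, 195, 214 and 476 CPM (239 ± 136, SD, n = 5). The groups overlapped, and the log2 fold changes of -0.48 ± 0.48 (SE, PTE+ against sham), -0.25 ± 0.41 (SE, PTE- against sham) and -0.23 ± 0.42 (SE, PTE+ against PTE-) had SEs about as large as the differences or larger. Single libraries moved them, to -0.94 and -0.69 for PTE+ against sham and against PTE- without a8_17, and to -0.13 for PTE- against sham without a9_20, which stands apart. Between sides Tsc22d3 had no common direction. It was lower ipsilaterally in 2 of 4 PTE+, 6 of 8 PTE- and 1 of 5 sham mice, with fitted side differences of 0.11 ± 0.38, -0.38 ± 0.27 and 0.33 ± 0.34 (SE). Over the 37 libraries Spearman's rho between Hsd11b1 and Tsc22d3 was 0.40, the values sharing library totals and mice.

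The receptors did not share that pattern. Nr3c1 held 113, 120.1, 121, 152 and 299.7 CPM in ipsilateral sham libraries and 112, 141, 155 and 156 CPM in PTE+ libraries, so that the ranges overlapped, with 3 of the 4 PTE+ libraries within the sham range and a9_19 just below it. In the 8 ipsilateral PTE- libraries it ran from 0.737 to 180.2 CPM with a median of 119.7. The highest sham value (a9_9) and the lowest PTE- value (a8_11) were both in libraries that stand apart. The log2 fold change of Nr3c1 against sham was -0.35 ± 0.73 (SE) in PTE+ and -0.62 ± 0.61 (SE) in PTE-, and without those libraries 0.03 ± 0.18 and -0.09 ± 0.17 (SE). Contralaterally Nr3c1 ran from 116 to 151 CPM in sham, from 61.0 to 454 in PTE- and from 64.3 to 165 in PTE+, with a log2 fold change of -0.58 ± 0.34 (SE) for PTE+ against PTE- that was -0.30 ± 0.26 (SE) without the contralateral PTE- library that stands apart.

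Nr3c2 had positive log2 fold changes in injured mice on the ipsilateral side, with wide errors. Sham libraries held 1.65, 8.62, 17.8, 17.9 and 20.6 CPM, PTE+ libraries held 12.9, 18.7, 21.8 and 48.8 CPM, and PTE- libraries ran from 8.20 to 86.1 CPM with a median of 30.4. The groups overlapped, with the lowest sham value and the highest PTE- value in libraries that stand apart. The log2 fold change was 1.22 ± 0.72 (SE) for PTE- and 0.79 ± 0.81 (SE) for PTE+ against sham, or 0.67 ± 0.45 and 0.50 ± 0.49 (SE) without those libraries. Within mice Nr3c2 was higher ipsilaterally in 7 of 8 PTE- mice, 2 of 4 PTE+ mice and 2 of 5 sham mice on the CPM scale. With TMM factors the PTE- count was 6 of 8, and on TPM it was 3 of 8 in PTE- and 3 of 4 in PTE+ mice, so that the prevailing direction in PTE- turned with the scale. Spearman's rho between Nr3c2 and Hsd11b1 over the 37 libraries was -0.59, and it was not computed without libraries that stand apart. Of these, ipsilateral a8_11 had the lowest Hsd11b1 (81.4 CPM) and the highest Nr3c2. Ipsilateral a9_9 had the highest Hsd11b1 (907 CPM), with Nr3c2 at 1.65 CPM.

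In the other 4 targets the groups overlapped and the errors were wide. Fkbp5, which encodes the receptor's co-chaperone, held 0, 1.31, 3.21, 4.37 and 7.67 CPM in ipsilateral sham libraries and 0, 6.94, 14.5 and 16.2 CPM in PTE+ libraries. In ipsilateral PTE- libraries Fkbp5 ran from 0.123 to 35.6 CPM with a median of 10.8, and the log2 fold change against sham was 1.93 ± 1.57 (SE) in PTE- and 1.38 ± 1.71 (SE) in PTE+, opposite in sign to Tsc22d3. Without libraries that stand apart these were 2.02 ± 1.21 and 1.06 ± 1.24 (SE). Sgk1, which has the full element in the window printed above, held 0, 43.3, 64.6, 68.4 and 90.8 CPM in ipsilateral sham libraries. In ipsilateral PTE+ libraries it held 13.3, 44.8, 47.7 and 48.1 CPM, and the sham library at 0 (a9_9) stands apart. Its log2 fold change was -0.63 ± 1.46 (SE) for PTE+ and -0.54 ± 1.22 (SE) for PTE- against sham, and -0.95 ± 0.66 and -0.80 ± 0.59 (SE) without libraries that stand apart. Per1 held 11.9, 12.2 and 12.8 CPM in 3 ipsilateral PTE+ libraries and 0.758 in the fourth, against 0.0835 to 13.5 CPM in sham and 1.11 to 17.4 in PTE-, and its log2 fold change against sham was -0.01 ± 1.21 (SE) in PTE+ and -0.21 ± 1.03 (SE) in PTE-. Zbtb16 spanned 0 to 13.4 CPM in PTE+, 0 to 11.4 in PTE- and 0.752 to 14.9 in sham ipsilaterally, with log2 fold changes of -0.65 ± 1.74 and -1.04 ± 1.44 (SE). Contralaterally the 4 genes had log2 fold changes between -1.08 (Per1, PTE+ against sham, SE 1.02) and 0.49 (Sgk1, PTE- against sham, SE 0.62), each with overlapping groups. The Sgk1 value was 0.12 ± 0.57 (SE) without the library of a9_20, which stands apart, and the Per1 value was -1.64 without that of a9_17. The summed level of 8 immediate early genes, which cell stress can raise, had an ipsilateral median of 1920 CPM in sham (117 to 2473), 491 in PTE- (269 to 3465) and 455 in PTE+ (97.4 to 569). Its part in the differences of the target genes was not tested.

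**Figure D3:**
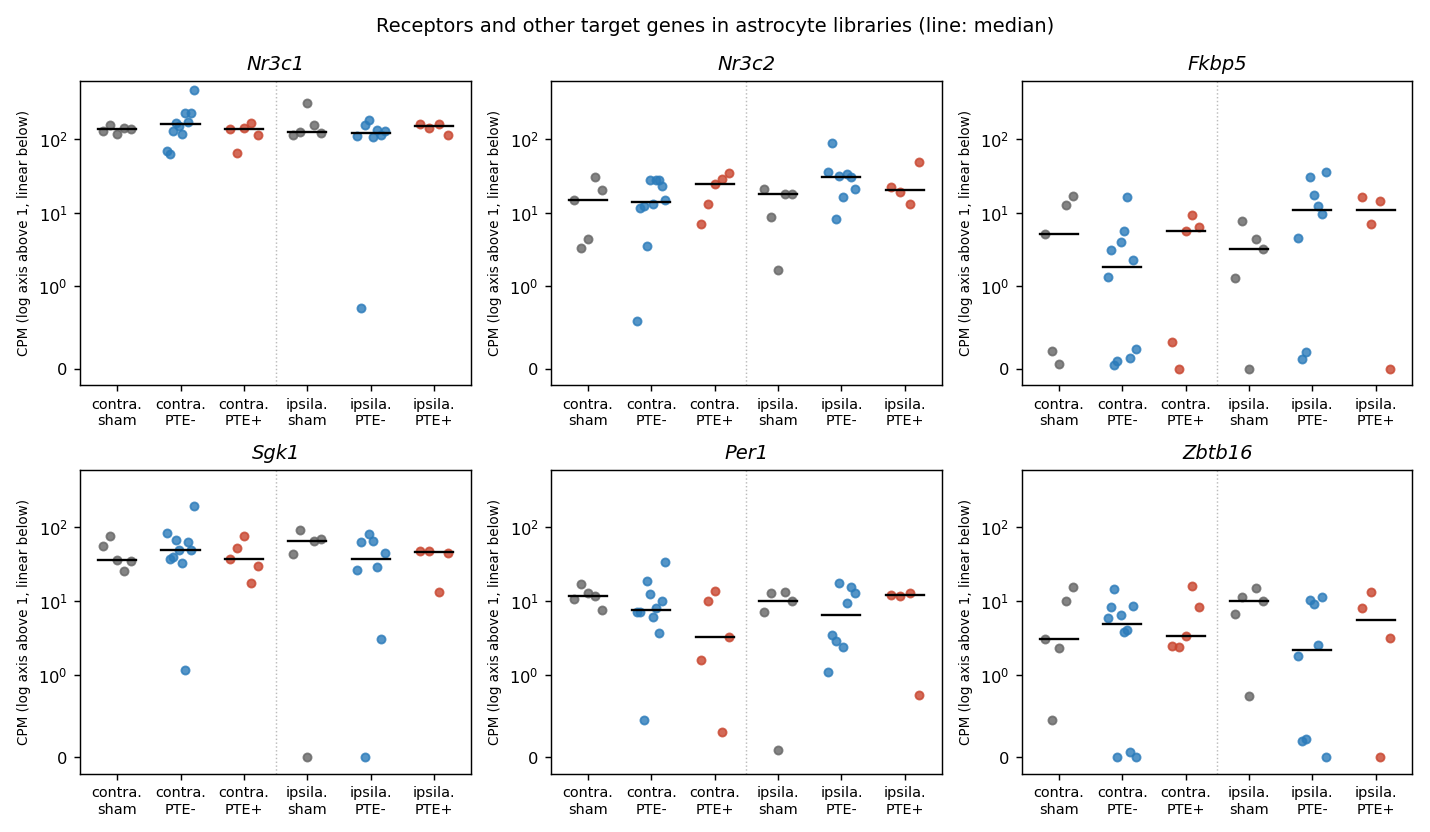
Levels of the 2 receptors and the 4 other targets in CPM, 1 point per library, by group and hemisphere, with the median as a line and an axis that is logarithmic above 1 and linear below. The groups of each gene overlap, and single libraries lie near 0, such as Nr3c1 in 1 ipsilateral PTE- library at 0.737 CPM.

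Read over the whole list, 6 of the 8 genes had a negative log2 fold change in the ipsilateral comparisons of PTE+ and of PTE- with sham, and the medians were -0.49 and -0.58 beside 0.00 and 0.02 over all genes tested. These comparisons share the sham libraries. No gene of the 8 had an adjusted p under 0.05 (Benjamini-Hochberg over all genes, edgeR's quasi-likelihood test) in any of the 11 comparisons. Over all genes the same rule called 0.00683% (1 of 14642) in contralateral PTE+ against PTE- and 0% in the other 10. DESeq2 and 2 limma fits, run as alternatives, also called none of the 8 between groups, whereas DESeq2 with the mouse as a block called Hsd11b1 between hemispheres in PTE- (log2 fold change -1.10 ± 0.27 SE). At an unadjusted p under 0.05 ipsilateral PTE+ against sham held 2 of the 8 genes (Hsd11b1 and Tsc22d3) beside 1.66% of all genes, and ipsilateral PTE- against sham the same 2 beside 1.58%. Contralateral PTE+ against sham held 1 (Hsd11b1) beside 1.23%. None of the 8 passed in contralateral PTE- against sham (1.54% of all genes), contralateral PTE+ against PTE- (2.21%) or ipsilateral PTE+ against PTE- (1.75%). Between hemispheres the count was 1 (Hsd11b1) in PTE- beside 4.56% and 0 in PTE+ (2.93%) and in sham (2.05%). For the difference of side differences it was 1 (Hsd11b1) for PTE- against sham beside 3.13% and 0 for PTE+ against PTE- (2.94%). Without libraries that stand apart the counts in PTE- between hemispheres and in PTE- against sham side differences were both 0, and the count for ipsilateral PTE+ against sham was 2. Ranges of CPM that do not overlap between ipsilateral PTE+ and sham, which Hsd11b1 and Tsc22d3 showed, were found in 179 of 14903 genes (1.20%). Since the 8 genes were chosen with these differences known, nothing is read from their share against the background.

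**Figure D4:**
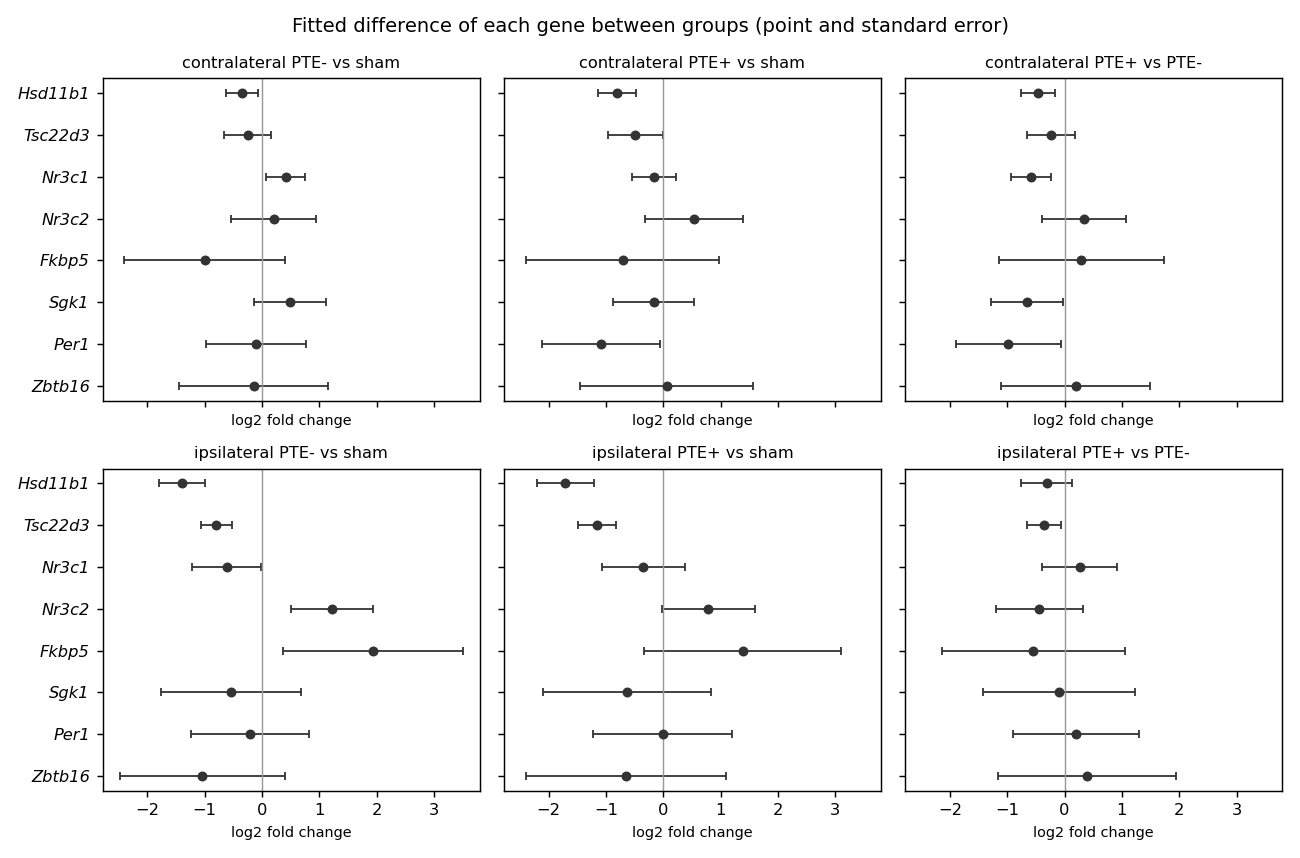
Fitted log2 fold change with its standard error for the 8 genes in the 6 comparisons between groups, contralateral in the top row and ipsilateral in the bottom row. Hsd11b1 lies left of 0 in all 6 panels, from -0.31 to -1.71, and Fkbp5 and Zbtb16 carry the widest errors.

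The wider pathway was read from lists written by role: 6 genes of steroid handling, 13 partners of the receptor (chaperones and coregulators) and 30 further targets. The lists were also chosen with earlier results of these data known. Their counts and p-values are therefore a description, and nothing is read from their share against the background. Of these 49 genes 46 or 47 were tested in each comparison, and edgeR gave none an adjusted p under 0.05. Among the genes that handle the steroid, Hsd11b2, which inactivates it, had more than 3 counts in 4 of 37 libraries, and H6pd, whose product supplies the cofactor of the Hsd11b1 enzyme, had a median of 1.47 TPM. The chaperones that hold the receptor were abundant, with median levels of 947 TPM for Hspa8, 642 for Hsp90aa1, 614 for Hsp90ab1 and 164 for Fkbp4. In ipsilateral PTE+ against sham, 24 of the 30 targets had a negative log2 fold change with a median of -0.49 beside 0.00 over all genes, and 2 of them passed an unadjusted p of 0.05, beside 1.66% of all genes. Dusp1, a phosphatase that switches off MAP kinases, went from 357 ± 262 CPM (SD, n = 5) in sham to 123 ± 40.7 (SD, n = 4). Its log2 fold change was -1.73 ± 0.60 (SE, p = 0.0098, adjusted p = 1, edgeR). Dusp1 is also an immediate early gene, and its 5 sham libraries ran from 62.4 to 573 CPM. Glul, the astrocyte enzyme that makes glutamine, went from 1568 ± 339 CPM (SD, n = 5) to 1069 ± 111 (SD, n = 4). Its log2 fold change was -0.72 ± 0.27 (SE, p = 0.0158, adjusted p = 1, edgeR), and without the sham library of a8_15 the unadjusted p of Glul was 0.0645. In ipsilateral PTE- against sham the targets split into 14 higher and 16 lower, with Dusp1 (-1.10 ± 0.48 SE) and Glul (-0.50 ± 0.23 SE) lower and Cebpb (1.21 ± 0.53 SE), an inflammatory transcription factor, higher at an unadjusted p of 0.05, or 3 of the 30 beside 1.58% of all genes. Without libraries that stand apart Dusp1 remained under that p (log2 fold change -1.54), whereas Glul (-0.45) and Cebpb (0.77) did not. In ipsilateral PTE+ against PTE- Cebpb (-1.39 ± 0.58 SE) and Cebpd (-1.53 ± 0.68 SE) were lower at that level, 2 of the 30 beside 1.75% of all genes, and neither remained so without libraries that stand apart. None of these differences passed the adjustment.

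Contralaterally the pathway gave fewer values at an unadjusted p under 0.05. In PTE+ against PTE- these were 2 of the 46 tested, beside 2.21% of all genes: Stip1, a co-chaperone that links Hsp70 to Hsp90 (-0.64 ± 0.26 SE), and Gjb6, the gap junction protein connexin 30 (-0.47 ± 0.20 SE, from 964 ± 242 CPM, SD, n = 10, to 743 ± 184, SD, n = 5). In PTE+ against sham it was 1 of 46 (1.23% of all genes), Mt2, a metallothionein (-0.88 ± 0.37 SE), and in PTE- against sham none (1.54%). Between hemispheres of PTE- mice Glul (-0.47 ± 0.18 SE) and Gjb6 (-0.45 ± 0.18 SE) were lower ipsilaterally at that level, and neither was without the mice of libraries that stand apart. The side difference of Glul was more negative in PTE- than in sham (-0.67 ± 0.29 SE), and that of Gjb6 was more positive in PTE+ than in PTE- (0.90 ± 0.31 SE), both at an adjusted p of 1, and that of Glul was not under an unadjusted p of 0.05 without the mice of libraries that stand apart. Each was the only one of 47 pathway genes at that level, beside 3.13% and 2.94% of all genes. Plin4, a lipid droplet protein and glucocorticoid target, also passed at that level between hemispheres of PTE+ and of PTE- mice, which made 1 of 47 beside 2.93% and 3 of 47 beside 4.56% of all genes. It held at most 9.06 CPM in any library of the series and had more than 3 counts in 13 of 37, so no fold is given. No pathway gene passed between the hemispheres of sham mice (2.05% of all genes). Of the 16 pathway values at an unadjusted p under 0.05 over all comparisons, 3 (Dusp1 in ipsilateral PTE+ against sham, Plin4 between hemispheres of PTE- mice and Gjb6 in the side difference of PTE+ against PTE-) stayed under it whichever library or mouse was left out.

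The genes whose level followed each member most closely over the 37 libraries, among 11131 genes with more than 3 counts in at least 30 of them, are given by Spearman's rho of log2(CPM + 1) with no test, since library totals, mice and astrocyte content are shared. For Hsd11b1 they were Mthfs (0.79), Lcat (0.72) and Naxe (0.71), and for Tsc22d3 Tmem176a (0.66), Mydgf (0.62) and Gatm (0.61). For Nr3c1 they were Eml3 (0.64), Acvr2b (0.63) and Lamb2 (0.63), and for Nr3c2 Pdia6 (0.66), Trp53bp1 (0.64) and Ccdc39 (0.63). Fkbp5 was followed by Dcaf1 (0.78), Evi5l (0.76) and Socs7 (0.72), and Zbtb16 by Gnaz (0.69), Sez6l (0.67) and Frmd8 (0.66). Per1 was followed by Mre11a (0.68), Bdh1 (0.66) and Atp13a3 (0.66), and Sgk1 by 2510002D24Rik (0.58), Epop (0.57) and Sec23a (0.57). None of the 8 genes was among the closest of another member, and within the list the highest rho was 0.45, between Sgk1 and Per1.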

How the data were processed

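Astrocyte RNA from 37 hippocampi was sequenced by the authors after SMART-Seq V4 preparation. Per the submitters' processing notes and the methods, reads were trimmed (Trim Galore 0.6.4), mapped to mm10 and quantified with RSEM 1.2.28 and Bowtie2 2.4.1, and the authors tested counts with DESeq2 1.36.0. The annotation release is not given in the sources used here. The deposited tables hold estimated counts per gene for each library and, separately, TPM. Symbols were found for 21856 of 21975 identifiers in the RefSeq and GENCODE M21 tables.

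The counts were fitted as deposited with edgeR 4.0.16 in R 4.3.3 (TMM, filterByExpr, quasi-likelihood F test, Benjamini-Hochberg over all genes). Each hemisphere was fitted over its 3 groups (14642 genes contralaterally, 14903 ipsilaterally). Side differences were fitted over mice with both libraries (15731 genes). The SE is the fold change over the square root of F. CPM was computed from library totals, and within-mouse and within-prefix differences on log2(CPM + 1). Correlations and ranges were computed in Python 3.11.15. Alternatives were RLE factors, no filter, covariates, DESeq2 1.42.0, limma 3.58.1 on counts and on log2(TPM + 1), a replicate block, and libraries left out. The edgeR fit was tested on simulated counts. Recovery of changed genes was required there only at a spread below that of these data, and at the real spread only their direction was. The test therefore does not tell how many changes can be called here.

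Both libraries of a mouse carry its name in the labels and so are paired by animal. The correlation of their deviations from the group means over 11131 genes had a median of 0.08 over 17 pairs and exceeded 0.1 in 7. P-values of comparisons between groups within a hemisphere measure the spread between mice. Those between hemispheres and of side differences come from fits without the mouse as a block. They measure the spread between libraries and do not use the pairing. Counting intervals do not cover amplification, as the reads carry no molecular identifiers.

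The 8 genes and the pathway lists were chosen with earlier results of these data known. Named genes were all 8, list genes with an unadjusted p under 0.05 (at most 3 per direction and comparison), and the 3 genes most like each member. Promoter windows are RefSeq's (GRCm38.p6), and Nr3c1 and Zbtb16 have none in that table.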

Additional observations from a re-analysis of the deposited data

Results flagged for a closer look

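Of the 48 groups of libraries (8 genes in 6 groups), 6 held a library far from the others by Dixon's gap ratio on log2(CPM + 1), where chance flags about 1 in 20 groups. Nr3c1 stood at 0.737 CPM in the ipsilateral PTE- library of a8_11, against 103.8 to 180.2 CPM in the other libraries (gap ratio 0.882). Sgk1 stood at 1.16 CPM in the contralateral PTE- library of a9_14, against 33.2 to 194 (0.613), and at 13.3 CPM in the ipsilateral PTE+ library of a9_18, against 44.8 to 48.1 (0.943). In the ipsilateral sham library of a9_9 Sgk1 had no counts, against 43.3 to 90.8 CPM in the other sham libraries (0.839), and Per1 stood at 0.0835 CPM, against 7.12 to 13.5 (0.776). Per1 stood at 0.758 CPM in the ipsilateral PTE+ library of a9_19, against 11.9 to 12.8 (0.967). The libraries of a8_11 and a9_9 are among the 4 that stand apart in abundant genes, and the other 3 are not. Hsd11b1 and Tsc22d3 had no such library in any group.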

How the results depend on the processing

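The number of the 8 genes and of the 49 pathway genes with an adjusted p under 0.05 was 0 in all 11 comparisons and stayed 0 under every alternative run except DESeq2 with the mouse as a replicate block. That fit called 1 of the 8 (Hsd11b1, log2 fold change -1.10 ± 0.27 SE, adjusted p = 0.0041) and 1 pathway gene (Abcb1a, an efflux transporter, 4.09 ± 0.92 SE, adjusted p = 0.0013) between hemispheres of PTE- mice, and 2 pathway genes for the side difference of PTE+ against PTE- (Abcb1a, and Akr1c14, which had more than 3 counts in 15 of 37 libraries), named after their values were seen. Hsd11b1 was chosen with these differences known, so its adjusted p is a description and not a test. The DESeq2 block fit was not run without the mice of libraries that stand apart. Among these mice, a8_11 and a8_14 had the largest within-mouse log2 differences of Hsd11b1 (-2.57 and -2.56). The edgeR fit with the replicate block (mouse) called 0 of either list. Over all genes DESeq2 called 69 to 113 genes between groups and 68 to 468 between hemispheres, where edgeR called 0 or 1. For the 8 genes and the pathway genes, leaving out 1 library or mouse at a time also gave 0 in every comparison. At an unadjusted p under 0.05 the count of the 8 genes was 2 under all 18 alternatives for ipsilateral PTE+ against sham and 2 to 3 under 22 for PTE- against sham. It fell from 1 to 0 for contralateral PTE+ against sham without any of 4 libraries (a9_17, a9_18, a8_16 and a9_9), and for the side difference of PTE- against sham without any of 7 mice (a8_11, a8_14, a9_12 and a9_16 of PTE-, a8_15, a9_9 and a9_11 of sham). Of 195 alternative log2 fold changes of Hsd11b1, 7 had the opposite sign, 6 of them between hemispheres of sham mice, where the main value was 0.02, and 1 for the side difference of PTE+ against PTE-. For Tsc22d3 it was 2 of 195, for Zbtb16 28 and for Per1 25. Without libraries that stand apart, pathway genes with an unadjusted p under 0.05 numbered 6 rather than 2 in ipsilateral PTE+ against sham, 5 rather than 3 in PTE- against sham and 0 rather than 2 in PTE+ against PTE-. Over all genes the same counts were 523 of 14808 rather than 248 of 14903, 288 rather than 236, and 488 rather than 261. The cause was not tested. The common biological coefficient of variation was 1.32 to 1.40, which with 4 to 10 libraries a group limits what can be called. Fkbp5, Zbtb16 and Sgk1 had at most 3 counts in 5, 5 and 2 libraries. For Sgk1 these were the ipsilateral libraries of a8_14 (PTE-) and a9_9 (sham), which had 0 counts, and both stand apart. The library totals were 45729725 and 59846479. The contralateral PTE- library of a9_20, which also stands apart, had 4934 counts of Sgk1 at a total of 25371887. The reason for the low counts was not tested.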
